A study of Mus musculus with 4 samples.

Results

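The cells described here are the classical monocytes of normal mouse lung, 118 of the 13344 cells that passed the filters in 4 single-cell libraries. They were chosen by their transcripts among 9968 filtered cells of the 2 normal lung libraries. A cell was kept with at least 1 unique molecular identifier (UMI, 1 captured transcript) of Ly6c2, at least 1 of Ccr2 and at least 5 of Lyz2. It also had at most 1 UMI over C1qa, C1qb and C1qc, at most 1 over the nonclassical genes Ace, Treml4, Cd300e and Adgre4, and at most 2 over the alveolar macrophage genes Krt79, Fabp1, Plet1, Car4 and Cidec. Flt3, Cd3e and Cd79a had to be at 0. This left 54 cells from the Rab37 KO library and 64 cells from the WT library.

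Live CD45+ cells were sorted from digested lungs of Rab37 KO and WT C57BL/6 mice and run on the 10x Genomics platform. Tumor libraries came from mice injected with LLC cells, a lung carcinoma line, and normal libraries from mice injected with Matrigel, a basement membrane gel, with 14 days as the stated time. The groups were tumor Rab37 KO, tumor WT, normal Rab37 KO and normal WT, with 1 library each. How the Rab37 allele was made, and how many mice each library pooled, are not given in the sources used here. With 1 library per group no difference between groups was tested. All intervals are exact 95% intervals for counting error only, and do not cover variation between mice.

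Classical monocytes are short-lived blood cells of the bone marrow lineage that leave the marrow through the chemokine receptor Ccr2 and carry the surface protein Ly6C. In tissue they can become macrophages or dendritic-like cells, and in the circulation they can convert into nonclassical monocytes, which patrol the vessel wall. The lung holds a large vascular pool of both. Rab37 is a small GTPase of secretory vesicles, and the series title concerns its role in the secretion of osteopontin, the product of Spp1, in lung tumors.

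The members carried 422946 UMIs in the Rab37 KO library and 479578 in the WT library. The median member had 7533.5 UMIs in KO and 7084.5 in WT, with 3.16% and 2.64% mitochondrial UMIs. Members made up 1.14% of the filtered cells in KO (interval 0.860 to 1.49%) and 1.22% in WT (0.941 to 1.56%), so the shares overlapped within counting error. Xist without Y-linked transcripts was seen in 11 KO and 18 WT members, and Y-linked transcripts without Xist in 24 KO and 29 WT members, so both normal libraries held cells of both sexes. The normal libraries shared 8 cell barcodes, none of them a member. Over all filtered normal cells, Rab37 had 13 UMIs (0.374 CPM, counts per 1000000 UMIs) in the KO library and 314 UMIs (8.60 CPM) in the WT library. Among the members it had 0 UMIs in KO and 1 in WT, too few to compare.

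The label was read from markers that the rule did not use. All 8 such classical monocyte markers were found in both libraries and summed to 9046 CPM in KO members and 6383 CPM in WT members, against 1007 and 1561 CPM in T cells of the same libraries. The rule fixed the levels of Ly6c2, Ccr2 and Lyz2, which are given as a description. Ly6c2, the Ly6C antigen, had a lowest, median and highest count per cell of 1, 6 and 49 UMIs in KO and 1, 4.5 and 72 UMIs in WT. Ccr2, the receptor for Ccl2, had 1, 6.5 and 21 UMIs in KO and 1, 5 and 16 UMIs in WT. Lyz2, the lysozyme of myeloid cells, had 10, 221.5 and 483 UMIs in KO and 8, 191.5 and 429 UMIs in WT. No member lay at the Lyz2 limit of 5. The cells that Lyz2 alone kept out, 38 in KO and 54 in WT, had at most 2 and 3 Lyz2 UMIs and carried 436 and 532 UMIs of the lymphocyte genes Cd3d, Trac and Nkg7. The Ccr2 limit was closer: 51 KO and 30 WT cells missed the rule only by having no Ccr2, with Ly6c2 at 728 and 526 CPM, while 3 KO and 6 WT members passed with 1 Ccr2 UMI. Reads of Ly6c2 and its neighbour Ly6c1, and of Lyz2 and Lyz1, may be shared between near-identical copies.

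Marker genes of other cells were low, with exceptions in single cells. The 9 markers of conventional dendritic cells summed to 26 UMIs in KO members, where Flt3, Xcr1, Zbtb46, Ccr7 and Fscn1 were at 0, and to 115 UMIs in WT members, where Flt3 and Fscn1 were at 0. The 6 plasmacytoid dendritic cell markers had 57 UMIs in KO, of which 51 lay in 1 cell, and 4 UMIs in WT. The 8 T cell markers had 8 UMIs in KO and 57 in WT, all 57 in 2 cells. Neutrophil markers took at least 1% of the UMIs of 2 KO and 4 WT members. Basophil and mast cell markers were at 0 in both libraries. Fibroblast markers had 28 UMIs in KO, 26 of them in 1 cell, and 0 in WT.

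Several genes of the classical monocyte list that the rule did not use were abundant, but not all. Ly6c1 had 2 UMIs in KO and 1 in WT members, and after thinning to 2000 UMIs Vcan was seen in 24.1% and 18.8% of members. Plac8, Thbs1 (thrombospondin), Fn1 (fibronectin), F13a1 (the coagulation factor XIII A chain) and S100a4 stood above the T cells of the same libraries in KO and WT. F13a1 had 830 CPM in KO and 628 CPM in WT members, against 22.4 and 15.04 CPM in T cells. Fn1 had 1260 CPM in KO and 959 CPM in WT, against 31.6 and 108 CPM in T cells. After each cell was thinned to 2000 UMIs, F13a1 was seen in 77.8% of KO (64.4 to 88.0%) and 64.1% of WT members (51.1 to 75.7%), and in 1.91% and 0.566% of T cells. Median depths before thinning were 7533.5 and 7084.5 UMIs in members and 6095.5 and 5540 UMIs in T cells.

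**Figure D1:**
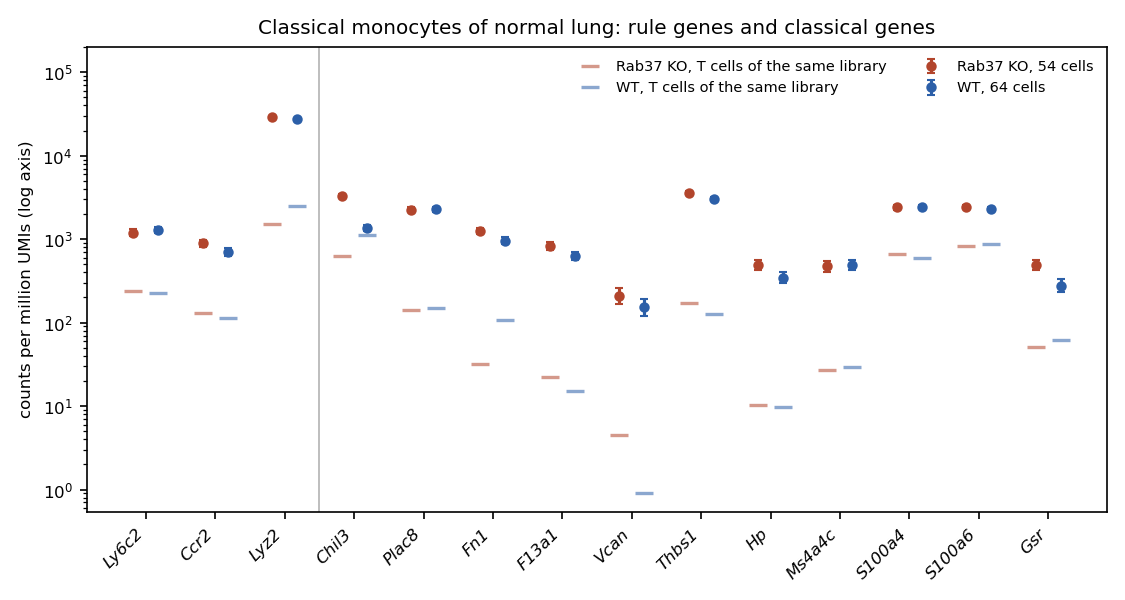
Level of each gene (CPM, log axis) in the summed counts of classical monocytes of normal lung, Rab37 KO left and WT right, with exact 95% counting intervals as bars and the level in T cells of the same library as dashes. Genes left of the vertical line were used to choose the cells. WT Chil3, at 1351 CPM, stands close to the summed level of WT T cells, at 1116 CPM, which few of those cells carry.

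Against nonclassical monocytes of the same lungs, classical monocytes were highest in F13a1, Ms4a4c, Capg, Chil3 and Fn1 and low in Cd36, Fcgr4 and Spn. The comparator was 163 KO and 198 WT cells with at least 3 UMIs over the 4 nonclassical genes, no Ly6c2, and the same limits on the other cell types. Since both groups were defined by transcripts, the differences are a description. A gene was measured with at least 50 UMIs over both cell types in each library and called at 2-fold in both libraries. Of 3412 measured genes, 90 (2.64%) were higher in classical monocytes and 296 (8.68%) were lower.

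F13a1 stood furthest apart. It had 351 UMIs in KO classical and 6 in KO nonclassical cells, a ratio of 136 (62.0 to 374). In WT it had 301 and 21 UMIs, a ratio of 32.2 (20.7 to 52.7). Ms4a4c, a membrane-spanning protein of the Ms4a family, was 20.2-fold higher in KO and 9.59-fold in WT. Fn1 was 10.8-fold higher in KO and 9.14-fold in WT, and Chil3, a chitinase-like secreted protein also known as Ym1, 17.0-fold in KO and 6.89-fold in WT. Capg, an actin-capping protein, was 17.7-fold and 8.61-fold higher. Wfdc17 (6.77 and 5.01-fold), Ccl9 (6.53 and 3.74-fold), Lgals3, or galectin-3 (4.39 and 4.22-fold), Vim, the intermediate filament vimentin (3.902 and 3.897-fold), and S100a10 (4.39 and 3.71-fold) completed the 10 genes with the largest ratios.

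Among genes low in classical monocytes, Cd36, a fatty acid and lipoprotein receptor, had 0 UMIs in KO classical and 528 in KO nonclassical cells. In WT it had 15 and 441 UMIs, a ratio of 0.076 (0.042 to 0.127). The Fc receptor Fcgr4 had a ratio of 0.066 in KO and 0.020 in WT. Spn, the sialophorin CD43 that marks nonclassical monocytes, had 0.103 and 0.089. Dusp16, a phosphatase of stress kinases, Cyth3, Cd300ld and the transglutaminase Tgm2 had ratios of 0.034 to 0.133 over both libraries.

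Dcn, Gsn and Acod1 also met the 2-fold limit on the low side, but these calls depended on the choice of comparator. Dcn, a fibroblast proteoglycan, had 890 UMIs in KO and 721 in WT nonclassical cells, and 888 and 721 of these lay in 5 cells of each library. With nonclassical cells limited to those with Csf1r, at least 5 Lyz2 UMIs, under 1% neutrophil RNA and few markers of other cells (79 KO and 102 WT cells), the 10 genes named as higher kept their call, and 7 of the 10 named as lower did. Gsn then had ratios of 3.83 in KO and 2.29 in WT, and Acod1 0.884 and 2.87. The count of genes lower in classical monocytes was then 168, against 296 with all nonclassical cells. Dcn is itself one of the markers of other cells, so the loss of its call was fixed by that limit. The limits on Csf1r, neutrophil RNA and other markers were put on nonclassical cells only. These ratios and this count therefore set a filtered group against members not filtered in that way.

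The lists gave the same contrast. Of 19 measured classical genes outside the rule, 12 were higher in classical monocytes and 0 lower, and the median log2 ratio was 1.40. Of 19 measured nonclassical genes outside the rule, 0 were higher and 16 lower, and the median log2 ratio was -2.51. Of 13 measured interferon response genes 6 were higher and 0 lower (median 0.91), of 10 complement and coagulation genes 3 were higher, and of 25 Rab and exocytosis genes 0 were called either way. Of 4 granule genes 1 was higher and 3 lower, but with the cleaner comparator 3 were higher and 0 lower. That comparator left out nonclassical cells by neutrophil RNA, a measure that includes S100a8, S100a9 and Mmp8 of this list. Members were not limited in that way, and 2 KO and 4 WT members had at least 1% neutrophil RNA. The change of direction therefore follows in part from the limit and is no result about these genes. The median over all measured genes was -0.14. Both groups were named from monocyte genes, so the first pair of counts is no independent evidence of identity.

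**Figure D2:**
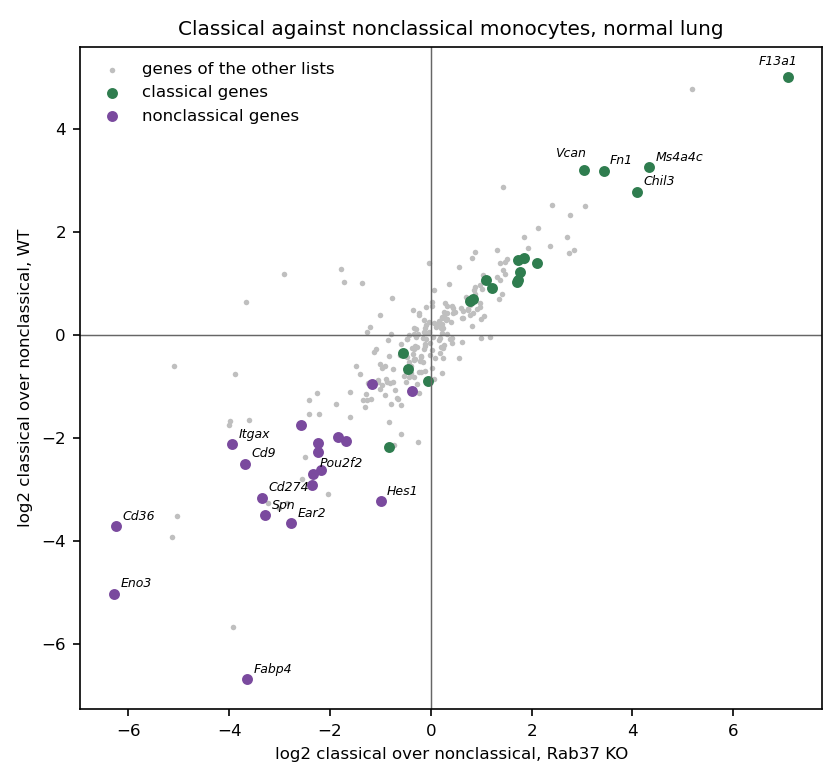
The log2 ratio of classical over nonclassical monocytes in the Rab37 KO library (horizontal) and in the WT library (vertical), for measured genes of the lists; each point is 1 gene, green for classical and purple for nonclassical genes outside the rule. A group with 0 UMIs is set to 3 counts, as for Cd36 in KO. F13a1 lies furthest to the upper right, with ratios of 136 and 32.2.

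In summed counts, KO members held less MHC class II, Ccl2 and Cxcl2 RNA and more Chil3 than WT members, while most genes differed little. Cxcl2 was not lower in KO among members with Xist (ratio 1.23). Genes whose UMIs in the 2 libraries summed to 50 or more were compared, and a ratio past 1.5-fold was called. Of 2327 measured genes, 175 (7.52%) were higher in KO and 146 (6.27%) lower, and of these 125 (5.37%) and 109 (4.68%) also had a counting interval clear of 1. The median log2 ratio over measured genes was 0.05.

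**Figure D3:**
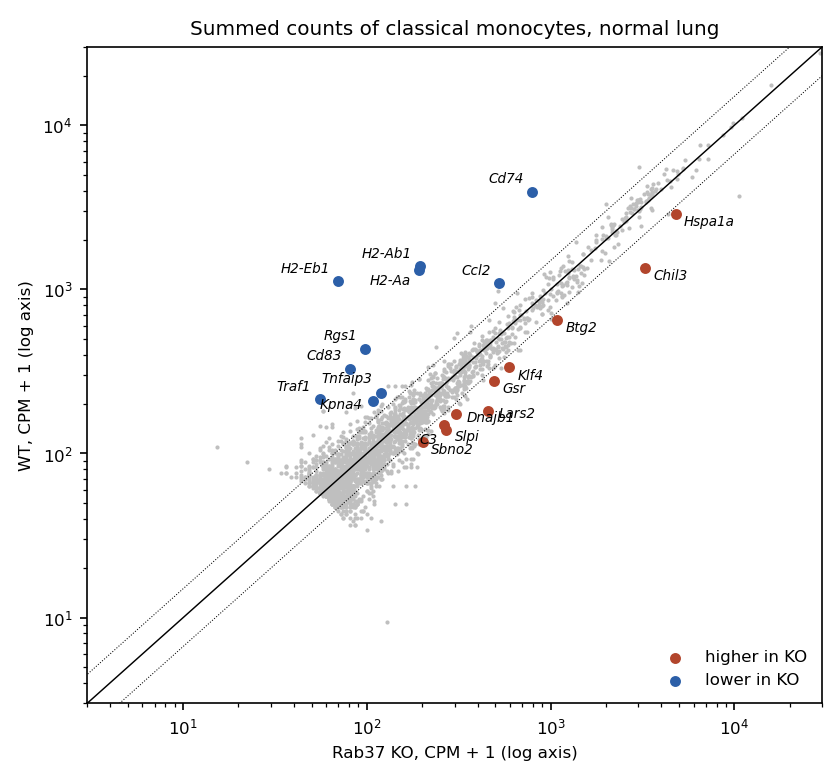
Summed level of every measured gene (grey points) in classical monocytes of normal lung, Rab37 KO on the horizontal and WT on the vertical axis (CPM + 1, log axes); dotted lines mark 1.5-fold. The 10 named genes higher in KO (red) lie below the diagonal and the 10 lower in KO (blue) above it, H2-Eb1 furthest with 68.6 CPM in KO and 1118 CPM in WT.

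The largest difference lay in MHC class II, the molecules that present peptides to CD4+ T cells. H2-Aa, H2-Ab1 and H2-Eb1 encode class II chains and lie close together on chromosome 17 (mm10 17:34282744-34287823, 17:34257689-34269419 and 17:34305867-34316674). Cd74 is the invariant chain that guides them to the endosome. H2-Eb1 had 29 UMIs in KO and 536 in WT, or 68.6 and 1118 CPM, a ratio of 0.061 (0.041 to 0.089). H2-Ab1 had 194 CPM in KO and 1389 CPM in WT, a ratio of 0.140 (0.110 to 0.176). H2-Aa had 192 and 1305 CPM, a ratio of 0.147 (0.115 to 0.185). Cd74 had 794 and 3931 CPM, a ratio of 0.202 (0.179 to 0.227).

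The 3 class II chains and Cd74 are known to share a promoter module, and the bases before 3 class II genes of the list are shown for that reason. They come from RefSeq (GRCm38.p6), give 200 bases up to the transcription start, 5′ to 3′, and carry TGATTGG, the core of the Y box bound by NF-Y, in capitals. H2-Aa is on the minus strand (17:34287824-34288023) and H2-Eb1 and H2-DMb1 on the plus strand (17:34305667-34305866 and 17:34152991-34153190).
H2-Aa: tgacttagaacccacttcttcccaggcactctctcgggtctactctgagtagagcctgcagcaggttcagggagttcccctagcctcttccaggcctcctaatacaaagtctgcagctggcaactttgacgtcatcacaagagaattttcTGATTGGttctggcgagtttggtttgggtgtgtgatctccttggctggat
H2-Eb1: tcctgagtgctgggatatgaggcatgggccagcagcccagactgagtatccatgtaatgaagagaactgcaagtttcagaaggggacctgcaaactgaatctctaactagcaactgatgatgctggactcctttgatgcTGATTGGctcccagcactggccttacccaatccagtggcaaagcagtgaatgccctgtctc
H2-DMb1: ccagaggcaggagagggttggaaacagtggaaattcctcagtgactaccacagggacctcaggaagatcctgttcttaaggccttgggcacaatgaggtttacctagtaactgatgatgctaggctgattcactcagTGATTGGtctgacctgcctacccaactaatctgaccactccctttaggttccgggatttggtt
The motif, searched on both strands, was in 5 of 6 class II pathway genes with an entry (8 were looked up), 38 to 85 bases before the start. Of all 32851 promoters, 6.57% held it in the same window. A match is a description of the letters only.

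These transcripts came from few cells. Members with at least 0.5% of their UMIs from the 4 genes numbered 4 of 54 in KO (7.41%, 2.06 to 17.9%) and 16 of 64 in WT (25.0%, 15.02 to 37.4%). They held 58.0% of the 528 class II UMIs in KO and 95.02% of the 3713 in WT. The highest 3 cells had 144, 80 and 48 UMIs in KO and 490, 430 and 425 in WT, while the median member had 1 UMI in KO and 2 in WT. Near the limit, 6 KO and 7 WT members lay between 0.25 and 1% of UMIs. Whether the limit separates 2 kinds of cell was not tested. T cells of the same libraries had 315 to 350 CPM of the 3 chains in KO and 466 to 542 CPM in WT, so that KO members, at 68.6 to 194 CPM, lay below the T cell level.

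Among the remaining 50 KO and 48 WT members, where 142 of 1873 measured genes (7.58%) were called higher and 114 (6.09%) lower, the 3 chains had ratios of 3.82 for H2-Eb1, 2.38 for H2-Aa and 1.37 for H2-Ab1, and Cd74 had 0.793 (0.629 to 1.00). These ratios rest on 14, 29 and 30 UMIs in KO and 3, 10 and 18 UMIs in WT, and the interval was 1.07 to 20.8 for H2-Eb1 and 1.13 to 5.47 for H2-Aa, while that of H2-Ab1 (0.737 to 2.602) spanned 1. These cells were set apart by the same genes, and their levels lie below those of T cells, so the ratios are a description only. In members with Xist and without Y-linked transcripts the ratio was 0.030 for Cd74, and in members with Y-linked transcripts and without Xist 0.424, so Cd74 was lower in KO in both. Of the class II-high WT cells, 7 had Xist and 7 had Y-linked transcripts alone.

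**Figure D4:**
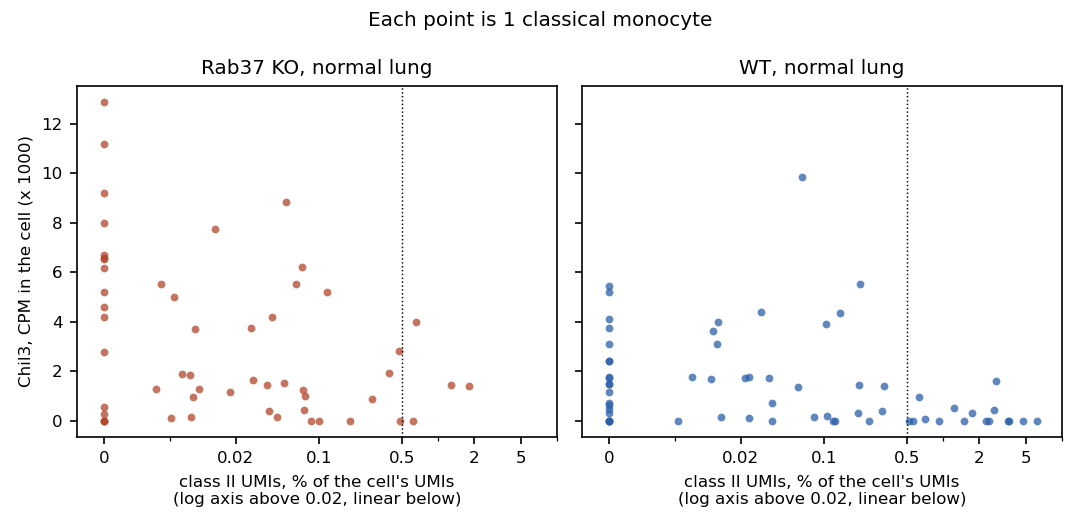
Share of each classical monocyte's UMIs from H2-Aa, H2-Ab1, H2-Eb1 and Cd74 (horizontal, log axis above 0.02%) against its Chil3 level (vertical, in units of 1000 CPM), Rab37 KO left and WT right. The 4 KO and 16 WT cells right of the dotted line at 0.5% hold 58.0% and 95.02% of the class II UMIs of their library's members.

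The 16 class II-high WT cells differed from the other 48 WT members in further genes. Cst3, the cystatin C common in dendritic cells, had 6088 CPM in them and 2006 CPM in the rest, a ratio of 3.03 (2.74 to 3.36). Cd83, an activation marker of antigen-presenting cells, had 626 and 185 CPM, and H2-DMb1, which loads peptide onto class II, 348 and 55.5 CPM. Ccr7, the receptor for migration to lymph nodes, had 52 UMIs in 5 of these cells and 0 in the others. Several classical genes were lower in them. Lyz2 had 16367 CPM in the class II-high cells and 32766 CPM in the rest, Fn1 400 and 1226 CPM, Hp, or haptoglobin, 142 and 444 CPM, Vcan, or versican, 38.7 and 210 CPM, and Chil3 322 and 1843 CPM. Plac8, at 1831 and 2481 CPM, and Ms4a4c, at 555 and 459 CPM, differed less. The 4 class II-high KO cells did not share all of this: against the other 50 KO members Lyz2 had a ratio of 1.10 (1.03 to 1.18), Thbs1 1.38 (1.15 to 1.66) and Cst3 1.08 (0.812 to 1.41), while Chil3 (0.544, 0.4003 to 0.723) and Fn1 (0.574, 0.348 to 0.896) were lower. Xcr1 and Clec9a, which define the cross-presenting dendritic cells, had 4 and 3 UMIs in the 16 WT cells and 0 in the other WT members. Cd209a, of monocyte-derived dendritic cells, had 13 UMIs in 5 of the 16 and 16 UMIs in 5 of the others (1.70, 0.752 to 3.77). Among further dendritic cell genes, Itgax had 12 UMIs against 0, Klrd1 9 against 0, Mgl2 7 against 1 and Zbtb46 3 against 0. Clec10a had a ratio of 3.40 (1.31 to 9.46) and Batf3 5.23 (1.51 to 22.9). Napsa had a ratio of 0.804 (0.574 to 1.11), and Fscn1 had 0 UMIs on both sides. The part of dendritic cells in the class II result was not tested.

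Of the class II and costimulation list, 7 of 8 measured genes were lower in KO and 0 higher (median log2 ratio -1.60), against 6.27% of all genes lower. Besides the 4 genes above this took in H2-DMb1 (0.535), the costimulatory ligand Cd86 (0.614) and H2-DMa (0.638). Among members with under 0.5% class II, 4 genes of the list were still measured and 1 was lower, against 6.09% of all genes there. MHC class I and immunoproteasome genes stayed close, with 0 of 12 called either way and a median log2 ratio of -0.16. Among genes of at least 200 CPM in WT, Rgs1, Cd83 and Traf1 were the next lowest in KO. Rgs1, a regulator of chemokine receptor signalling, had 96.9 CPM in KO and 434 CPM in WT, a ratio of 0.224 (0.156 to 0.314), and 0.228 in cells with little class II. Traf1, an adaptor of TNF receptors, had 54.4 and 213 CPM, a ratio of 0.256 (0.155 to 0.405), and 0.322 in cells with little class II.

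Of 17 measured genes of the inflammatory cytokine and chemokine list, 6 were lower in KO and 0 higher (median log2 ratio -0.32), against 6.27% of all genes lower and 7.52% higher. The chemokines split: Ccl2, Ccl4 and Cxcl2 were lower, while Ccl3 (1083 CPM in KO and 1072 CPM in WT), Ccl6 (1234 and 1113 CPM) and Ccl9 (676 and 584 CPM) were not called. Ccl2, the ligand of Ccr2 itself, had 525 CPM in KO and 1091 CPM in WT, a ratio of 0.481 (0.410 to 0.564), against 28.2 and 25.8 CPM in T cells. Ccl2 ran from 0 to 34 UMIs per KO member with a median of 0, and from 0 to 91 UMIs per WT member with a median of 0.5. After thinning, 35.2% of KO (22.7 to 49.4%) and 35.9% of WT members (24.3 to 48.9%) had a Ccl2 UMI, so these shares overlapped within counting error while the summed levels did not. In members with Xist the Ccl2 ratio was 0.975 and in those with Y-linked transcripts 0.425. Cxcl2 had 3022 CPM in KO and 5538 CPM in WT, a ratio of 0.546. After thinning it was seen in 55.6% of KO (41.4 to 69.1%) and 62.5% of WT members (49.5 to 74.3%), and these shares overlapped. The Cxcl2 ratio was 1.23 in members with Xist and 0.568 in those with Y-linked transcripts.

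Ccl4, an inflammatory chemokine, had 518 CPM in KO and 974 CPM in WT (ratio 0.532, 0.451 to 0.626), though T cells also differed, at 183 and 346 CPM. Vegfa, the vascular growth factor, had 75.7 and 177 CPM, a ratio of 0.427 (0.275 to 0.648). Tnfaip3, the A20 inhibitor of NF-kB, had 118 and 231 CPM (0.511, 0.358 to 0.719). Kpna4, an importin, had 106 and 209 CPM (0.510, 0.351 to 0.732). Among members with little class II, 5 of 16 measured cytokine genes were lower and 0 higher, against 6.09% of all genes there lower.

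Chil3 was the clearest gene higher in KO. Its lowest, median and highest count per cell was 0, 14 and 119 UMIs in KO and 0, 5 and 61 UMIs in WT, and the ranges overlapped. It had 3251 CPM in KO (3081 to 3428) and 1351 CPM in WT (1249 to 1459), a ratio of 2.41 (2.19 to 2.65). It was seen in 79.6% of KO (66.5 to 89.4%) and 54.7% of WT members (41.7 to 67.2%) after thinning, and in 6.65% and 9.62% of T cells. Summed over T cells Chil3 had 626 CPM in KO and 1116 CPM in WT, from few of the cells, so that the WT members were near the T cell level in CPM and well above it in the share of cells. The ratio was 3.24 in Xist cells, 2.62 in cells with Y-linked transcripts and 1.82 in members with little class II.

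Other genes higher in KO had smaller ratios. Slpi, a secreted inhibitor of leukocyte proteases, had 270 CPM in KO and 138 CPM in WT (1.96, 1.43 to 2.69). Klf4, a transcription factor of the monocyte lineage, had 593 and 334 CPM (1.78, 1.45 to 2.18), and was seen in 57.4% of KO (43.2 to 70.8%) and 37.5% of WT members (25.7 to 50.5%). C3, the central complement protein, had 262 and 148 CPM (1.77, 1.30 to 2.42), with 19.3 and 14.6 CPM in T cells. Gsr, glutathione reductase, had 489 and 277 CPM (1.76, 1.41 to 2.21). Sbno2 had 201 and 117 CPM (1.72, 1.21 to 2.46), and Btg2, an antiproliferative immediate early gene, 1085 and 651 CPM (1.67, 1.44 to 1.93). Among genes of at least 200 CPM in the higher library, Lars2, the mitochondrial leucyl-tRNA synthetase, had the largest ratio, 2.54 (1.96 to 3.32), with 456 CPM in KO and 179 CPM in WT. It differed alike in T cells (483 and 208 CPM) and B cells (457 and 208 CPM), so its difference was shared by the libraries and is not particular to monocytes.

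The heat shock genes differed with the subset of cells. Hspa1a and Hspa1b, which encode inducible HSP70 and lie near each other on chromosome 17, are close copies, so reads may be split between them. Their transcripts were not compared here. Of the 200 bases before their starts, which are not part of the transcript, 199 are identical. Hspa1a had 4797 CPM in KO and 2882 CPM in WT (1.66, 1.55 to 1.78), and Hspa1b 4372 and 2896 CPM (1.51, 1.41 to 1.62). Their co-chaperone Dnajb1 had 305 and 173 CPM (1.76, 1.33 to 2.35). Hspa1a ran from 0 to 171 UMIs per KO member with a median of 10, and from 0 to 124 UMIs per WT member with a median of 13. In Xist cells its ratio was 0.920, from 179 KO and 333 WT UMIs, below 1 unlike that over all members. T cells had 1393 CPM of Hspa1a in KO and 1734 CPM in WT. The stretch before Hspa1a (RefSeq, GRCm38.p6, 17:34972157-34972356, minus strand) is shown with GAANNTTC, a pair of heat shock element units, in capitals.
Hspa1a: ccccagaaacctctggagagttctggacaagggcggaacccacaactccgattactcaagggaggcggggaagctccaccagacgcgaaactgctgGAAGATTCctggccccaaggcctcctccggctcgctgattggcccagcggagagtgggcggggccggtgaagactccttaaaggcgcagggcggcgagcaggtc
The motif reads the same on both strands, was in 4 of 7 chaperone genes with an entry (9 were looked up) and in 5.36% of all promoters.

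The other list counts are read against the 7.52% of all genes called higher in KO and the 6.27% called lower, and with lists this short a few calls lie near those shares. Of 18 measured classical genes outside the rule, 3 were higher and 0 lower (median log2 ratio 0.29): Chil3, Gsr and Mgst1, a glutathione transferase with 428 CPM in KO and 279 CPM in WT. With the class II-high cells left out, 1 of 18 was higher and the median was 0.05. Of 11 measured nonclassical genes 3 were higher and 3 lower, with Clec4a1 at 1.70 (1.19 to 2.45) and the tetraspanin Cd9 at 0.425 (0.263 to 0.670). Hes1, a Notch target, had 142 and 48.0 CPM (2.96, 1.80 to 5.01) but was seen in 13 KO and 9 WT cells. Of 20 transcription factors 5 were higher and 0 lower (median 0.29), among them Cebpd, with 173 and 81.3 CPM (2.12, 1.42 to 3.22), Maf and the glucocorticoid receptor Nr3c1. Of 17 receptor genes 0 were higher and 1 lower: Cx3cr1, the fractalkine receptor typical of nonclassical cells, had 96.9 and 154 CPM (0.628, 0.418 to 0.932).

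Of 13 interferon response genes 2 were higher in KO and 0 lower. Ifi211 had 187 CPM in KO and 100 CPM in WT (1.87, 1.29 to 2.73), and Slfn5 199 and 119 CPM (1.67, 1.18 to 2.38). Of 12 pattern recognition genes 1 was higher, Tlr7, a sensor of single-stranded RNA (102 and 56.3 CPM, 1.81, 1.09 to 3.04). The other call was lower, Clec4d, a C-type lectin (229 and 346 CPM, 0.663, 0.510 to 0.856). Of 10 complement and coagulation genes 2 were higher: C3, above, and Thbd, or thrombomodulin (187 and 81.3 CPM, 2.30, 1.55 to 3.46). Of 24 antimicrobial and lysosomal genes 3 were higher and 3 lower. Ctsd, the protease cathepsin D, was lower (298 and 505 CPM, 0.590, 0.472 to 0.735), and so was Cst3 (2007 and 3326 CPM, 0.604, 0.555 to 0.656), whose ratio was 0.996 in cells with little class II.

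Fc and phagocytic receptors had 1 of 14 genes higher, the scavenger receptor Msr1 (196 and 121 CPM, 1.62, 1.15 to 2.31). Of 9 lipid and arginine metabolism genes 1 was higher, the lipase Lpl, and 1 lower, the arginase Arg2. Of 22 measured Rab and exocytosis genes 1 was higher, Rab6a (87.5 and 48.0 CPM, 1.82, 1.06 to 3.22), and 2 lower, Rab20 (82.8 and 127 CPM, 0.651, 0.417 to 1.00) and the syntaxin Stx3 (44.9 and 79.2 CPM, 0.567, 0.309 to 1.01), with a median of -0.04. Spp1 had 3 UMIs in KO and 18 in WT, a ratio of 0.189 (0.036 to 0.647), and members lay below the T cells of their library (34.6 CPM) in KO and near them (47.1 CPM) in WT. Among osteopontin receptor genes, Cd44 had 894 and 711 CPM (1.26, 1.08 to 1.46) and Itga4 338 and 263 CPM (1.29, 1.01 to 1.65), and 0 of 3 measured genes of that list were called. The stress and immediate early list had 4 of 20 genes higher and 0 lower, all named above (Dnajb1, Btg2, Hspa1a and Hspa1b). Of 4 granule genes 1 was higher, the collagenase Mmp8 (80.4 and 43.8 CPM, 1.84, 1.03 to 3.33), and of 8 macrophage and dendritic cell genes 2 were lower, Ccr7 (0 and 52 UMIs) and Aif1 (75.7 and 119 CPM, 0.637, 0.399 to 0.998). Of 4 measured cell cycle genes 0 were higher and 1 lower, Tubb5, while Mki67 and Top2a were not measured at this depth.

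**Figure D5:**
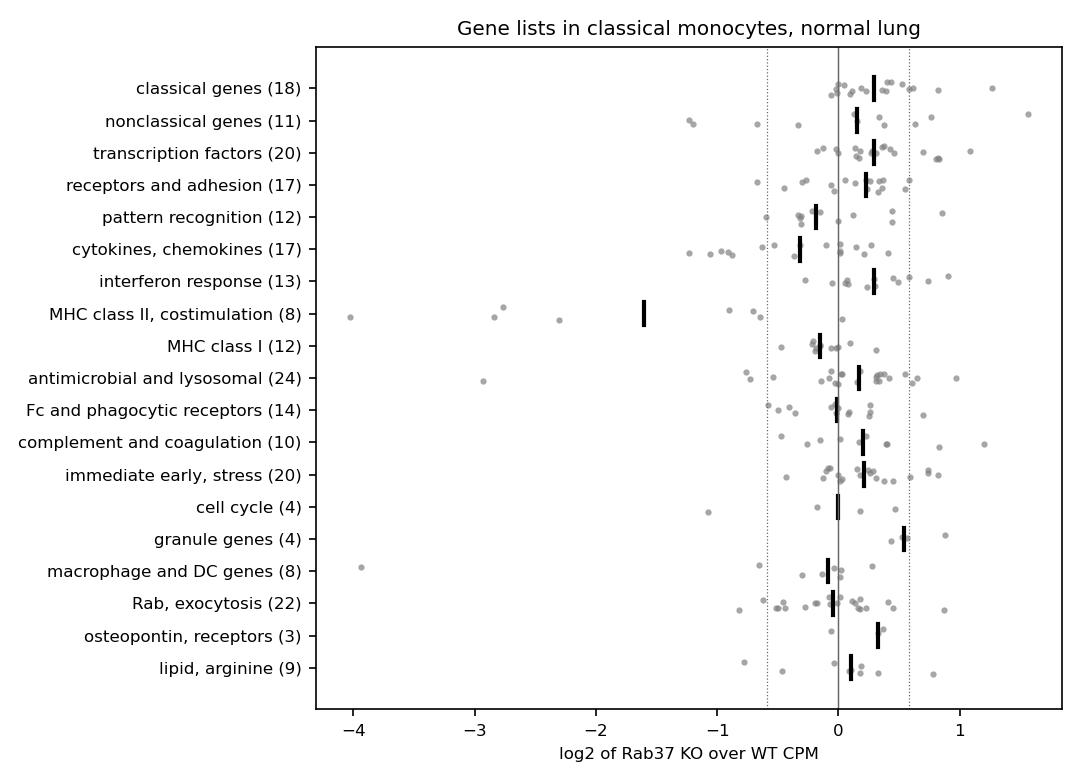
The log2 ratio of Rab37 KO over WT in classical monocytes of normal lung for each measured gene (grey points) of 19 lists, with the list's median as a black bar, the number of measured genes in brackets and dotted lines at 1.5-fold. The class II list has the lowest median, at -1.60, and the other medians lie between -0.32 and 0.54.

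Members also varied among themselves within each library. After thinning to 2000 UMIs, 66 of 1924 genes had a variance at least 2 times their mean in both libraries, where the median gene had 1.08 in KO and 1.10 in WT. S100a9 and S100a8, the calprotectin subunits, led. Of 626 S100a9 UMIs in KO, 397 and 211 lay in 2 cells, and the next cell had 5. Of 525 in WT, 289, 90 and 82 lay in 3 cells. After thinning, S100a8 was seen in 9.26% of KO and 12.5% of WT members, against 4.83% and 4.75% of T cells. Both genes are also the most abundant neutrophil transcripts, and 2 KO and 4 WT members had at least 1% neutrophil RNA.

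Another group of variable genes was inflammatory. Cxcl2, a neutrophil chemokine, had a variance over mean of 12.4 in KO and 19.5 in WT. It ran from 0 to 132 UMIs in KO members with 19 cells at 0, and from 0 to 220 UMIs in WT members with 21 cells at 0. Ccl2 and Ccl4 had 5.44 and 4.99 in KO and 8.71 and 7.95 in WT. Hspa1a (14.8 in KO and 14.1 in WT), Hspa1b and Hsp90aa1 varied likewise, and so did Cd74 (10.4 in KO and 24.3 in WT) with H2-Aa (4.76 and 8.70). Thbs1 (15.9 and 9.70), Chil3 (6.38 and 5.94), Fth1, Malat1 and G0s2 completed the 15 most variable genes.

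Ly6c2 itself ordered a few genes among the members. Members were split by their thinned Ly6c2 count into 0 or 1 (27 KO and 31 WT cells), 2 or 3 (14 and 16) and 4 or more UMIs (13 and 17). Plac8, from low to high Ly6c2, had 1204, 2071 and 3692 CPM in KO and 1468, 2656 and 3912 CPM in WT. Ifi27l2a, an interferon-induced gene, had 1056, 893 and 3654 CPM in KO and 806, 1844 and 2529 CPM in WT. Ms4a4c, at 846 CPM in KO and 794 CPM in WT, was also highest in the top class. Vcan was lowest there, but on 2 UMIs in KO and 4 in WT. Cd74 had 231 CPM in KO and 618 CPM in WT in the top class, its lowest of the 3 in both. Chil3 had no common order, at 3074, 3179 and 2269 CPM in KO and 1290, 1969 and 1353 CPM in WT. These are descriptions within 2 libraries, and Ly6c2 was used to choose the cells.

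The same rule applied to the tumor libraries gave 81 cells in tumor Rab37 KO (2.97%, 2.36 to 3.68%) and 18 cells in tumor WT (2.78%, 1.66 to 4.36%), against 1.14% and 1.22% in normal Rab37 KO and normal WT. Sex was not balanced: tumor KO members had Y-linked transcripts in 63 cells and Xist alone in 0, and tumor WT members Xist in 15 and Y-linked transcripts in 0. The file headers give software 3.1.0 for tumor and 3.0.1 for normal libraries. Tumor and normal therefore cannot be told apart from library, software and, in part, sex. Neutrophil markers summed to 28026 CPM in tumor KO and 8172 CPM in tumor WT, against 3282 CPM in normal KO and 2704 CPM in normal WT, and 19 of 81 and 3 of 18 tumor cells had at least 1% neutrophil RNA. T cells of the tumor libraries held 26936 and 15507 CPM of the same markers, and the part of free neutrophil RNA in the results was not tested. Scaling on the median gene would shift all tumor over normal log2 ratios by -0.13 in KO and -0.11 in WT.

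Within KO, 315 of 3355 measured genes (9.39%) were at least 2-fold higher in tumor and 100 (2.98%) lower. Within WT, 144 of 1704 (8.45%) were higher and 154 (9.04%) lower. Heat shock genes were among the lowest ratios in both genotypes, though Cd83, with 2 UMIs in tumor and 157 in normal WT cells, was lower still in WT (0.038, 0.0046 to 0.141). Hspa1b had 175 CPM in tumor and 4372 CPM in normal KO cells, a ratio of 0.040 (0.034 to 0.047), and 452 and 2896 CPM in WT, a ratio of 0.156 (0.121 to 0.198). Hsph1 had ratios of 0.093 in KO and 0.107 in WT, and Hsp90aa1 0.264 and 0.221. Without the cells of at least 1% neutrophil RNA, Hspa1b had ratios of 0.047 in KO and 0.174 in WT. Of the immediate early and stress list, 5 of 20 genes were lower and 2 higher (Ier3 and Egr1) in KO, and 6 of 20 were lower and 0 higher in WT. T cells differed the same way in Hspa1b, with 499 CPM in tumor and 1460 CPM in normal KO and 617 and 1793 CPM in WT.

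Genes with the largest tumor ratios were also abundant in tumor T cells, and the part of free RNA in their levels was not tested. Spp1, the osteopontin gene of the study's title, had 399 UMIs in 26 tumor KO cells, with 74 in the highest cell, against 3 UMIs in 2 normal KO cells. In tumor WT it had 72 UMIs, 63 of them in 1 cell, against 18 UMIs in normal WT, so the WT ratio rests on 1 cell. After thinning, Spp1 was seen in 18.5% of tumor KO and 16.7% of tumor WT members, against 26.1% and 41.7% of T cells of those libraries. Median depths were 9162 and 8013 UMIs in members and 10981 and 5338 UMIs in T cells. The members' Spp1 shares were thus no higher than those of T cells. In CPM, tumor T cells had 849.5 in KO and 3923 in WT, and normal T cells 34.6 and 47.1. Arg1, the arginase of tumor-associated myeloid cells, had 599 UMIs in 32 tumor KO cells against 11 UMIs in 1 normal KO cell, and 54 UMIs in 5 tumor WT cells against 0 in normal WT, and tumor T cells had 1505 CPM in KO and 644 CPM in WT. Ifitm1 had 1706 CPM in tumor and 11.8 CPM in normal KO cells, a ratio of 144, which was 27.1 (11.4 to 84.5) without the cells of at least 1% neutrophil RNA. In WT it had 597 and 27.1 CPM, a ratio of 22.01 (12.3 to 42.9), or 9.90 (2.47 to 56.9) without them. Tumor T cells had 1469 CPM of Ifitm1 in KO and 756 CPM in WT. The granule genes Lcn2, Ngp and Retnlg led in KO (712, 348 and 1676 UMIs in tumor against 3, 0 and 18 in normal), and without those cells Ngp had 1.74 CPM and Retnlg 15.7 CPM in tumor.

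Summed class II RNA ran in opposite directions by genotype, but few cells carried much of it. H2-Eb1 had 584 CPM in tumor and 68.6 CPM in normal KO cells (8.52, 5.86 to 12.8), and 477 and 1118 CPM in WT (0.427, 0.331 to 0.544). Cd74 had 1684 and 794 CPM in KO (2.12, 1.88 to 2.39), and 2349 and 3931 CPM in WT (0.598, 0.533 to 0.668). The highest and the next cell held 824 and 406 of 3352 class II UMIs in tumor KO, and 302 and 187 of 672 in tumor WT. Class II-high cells were 12 of 81 in tumor KO (7.90 to 24.4%) and 4 of 54 in normal KO (2.06 to 17.9%). In WT they were 4 of 18 in tumor (6.41 to 47.6%) and 16 of 64 in normal lung (15.02 to 37.4%). Within each genotype these shares overlapped within counting error. Chil3 had 1780 CPM in tumor and 3251 CPM in normal KO cells (0.548, 0.509 to 0.589), and 1614 and 1351 CPM in WT (1.19, 1.03 to 1.38). Vcan was higher in tumor in both, with ratios of 3.60 (2.88 to 4.55) in KO and 2.20 (1.52 to 3.16) in WT. After thinning, H2-Aa was seen in 19.8% of tumor KO and 22.2% of tumor WT members, near the 14.1% and 19.4% of tumor T cells. The differences between genotypes in these ratios were not tested.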

How the data were processed

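The deposited files are gene by cell matrices of whole-number UMI counts, 1 per library, made by the authors with 10x software 3.0.1 (normal) and 3.1.0 (tumor), per the file headers, on mm10, per the submitters' processing notes. The aligner and its settings are not given in the sources used here. A cell passed with 200 or more detected genes and no more than 10% of its UMIs from mitochondrial genes, the rule was applied to raw counts, and counts were summed per library and expressed as CPM. Gene positions came from GENCODE vM21, where 30934 of 31053 identifiers were found.

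Each library is the only one of its group, so ratios carry exact 95% conditional binomial intervals, levels exact Poisson intervals and shares exact Clopper-Pearson intervals, with no p-value. In log2 medians a count of 0 was set to 3. T cells of the same library (Cd3e at least 2 UMIs) gave the background level. Named genes were the 10 largest ratios each way with at least 200 CPM and 20 UMIs in the higher group and intervals that do not overlap, without sex-linked genes, antigen receptor and globin genes, ribosomal protein and mitochondrial genes, predicted genes and genes of the rule, plus up to 4 members of each of 19 lists, the 15 most variable genes, the genes of the rule, Rab37 and Spp1. The members and lists were chosen with earlier results of these data known.

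Doublets were scored with Scrublet and not removed. It marked 2.05% of normal KO and 3.99% of normal WT cells, with 0 and 1 members, and 0.147% and 0.927% in tumor KO and tumor WT, too few in tumor KO to have worked. Scripts ran in Python 3.11.15 with numpy 2.4.6, scipy 1.17.1, pandas 2.3.3, scanpy 1.11.5 and matplotlib 3.10.9, and were tested on simulated counts. Of the alternatives, 32 were planned and 6 were chosen after seeing the data. One gene of the classical list is not reported here by name.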

Additional observations from a re-analysis of the deposited data

Results flagged for a closer look

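Of 90 named genes, 13 had a KO over WT ratio in tumor cells that met the rule opposite to that in normal lung, each with a counting interval clear of 1 in both. The differences were not tested. Lower in tumor and higher in normal lung were Hspa1a (0.494 and 1.66), Hspa1b (0.387 and 1.51), Ifi211 (0.487 and 1.87), Lpl (0.0079 and 1.72, from 1 KO and 22 WT UMIs in tumor) and Lyz2, a gene of the rule (0.506 and 1.07). Higher in tumor and lower in normal lung were Kpna4 (1.87 and 0.510), Tnfaip3 (2.26 and 0.511), Clec4d (2.03 and 0.663), Vegfa (3.02 and 0.427), Ccl4 (1.19 and 0.532), Tubb5 (1.63 and 0.476), Slc7a11 (1.85 and 0.723) and Cxcl2 (1.97 and 0.546). The tumor ratios rest on 81 KO cells and 18 WT cells, and tumor KO members had Y-linked transcripts where tumor WT members had Xist.

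In normal lung, 8 genes had opposite KO over WT ratios in members with Xist and in members with Y-linked transcripts alone, also untested. In Xist cells the ratio was 4.55 for S100a8, 4.63 for S100a9, 1.57 for Hmgb2, 1.23 for Cxcl2, 0.580 for Hspa1b, 0.641 for Hsp90aa1, 0.916 for Fth1 and 0.843 for Malat1. In cells with Y-linked transcripts it was 0.021 for S100a8, 0.030 for S100a9, 0.535 for Hmgb2, 0.568 for Cxcl2, 2.01 for Hspa1b, 1.48 for Hsp90aa1, 1.26 for Fth1 and 1.17 for Malat1. Most S100a8 and S100a9 UMIs lay in 2 KO cells and 3 WT cells.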

How the results depend on the processing

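No paired analysis was possible because each group has 1 library, and no replicate could be left out. Genes higher and lower in KO numbered 78 and 62 in Xist cells (175 and 146 in all members), the lower count was 66 in cells with Y-linked transcripts, and cells thinned to 2000 UMIs gave 46 and 24. The UMI minimum moved both counts most, to 3069 and 2396 at 1 UMI, 585 and 446 at 20 UMIs and 18 and 18 at 200 UMIs. Of 354 named gene ratios under 17 settings (21 genes), 286 stayed inside the counting interval, 63 moved outside it in the same direction and 5 reversed. Those reversed in Xist cells were Hspa1a (0.920, from 179 KO and 333 WT UMIs) and Spp1 (3.42, from 2 KO and 1 WT UMIs). Those reversed in cells with little class II were H2-Eb1 (3.82), H2-Ab1 (1.37) and H2-Aa (2.38), from 14 to 30 KO and 3 to 18 WT UMIs. The share of cells meeting the rule was 1.604% in KO with at most 5% mitochondrial UMIs, 0.846% in KO and 0.916% in WT with at least 2 UMIs each of Ly6c2 and Ccr2, 0.703% in KO and 0.862% in WT among Xist cells, and 1.90% in WT among cells with Y-linked transcripts. Classical over nonclassical counts were 33 and 96 at 200 UMIs, and 168 genes were lower with the cleaner comparator. Tumor over normal counts at 200 UMIs were 88 and 22 in KO and 27 and 46 in WT. In KO 186 genes were higher without cells of at least 1% neutrophil RNA, and in WT 80 were higher in cells with little class II. Variable genes numbered 33 at 1000 UMIs and 104 at 3000 UMIs. The causes of these shifts were not tested, beyond the fewer cells or genes of a stricter limit. Genes under 50 UMIs over both libraries entered no count of calls.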

Other observations

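Single members stood apart within their libraries. In KO, 1 cell held 51 of the 57 UMIs of plasmacytoid dendritic cell markers and another 26 of the 28 UMIs of fibroblast markers. In WT, the 57 UMIs of T cell markers lay in 2 cells, 37 of them in 1. Lyz1, the near-identical neighbour of Lyz2, had 6 UMIs in 3 KO cells and 52 UMIs in 8 WT cells, a ratio of 0.131 (0.046 to 0.304), while Lyz2 had a ratio of 1.07 (1.04 to 1.09). Platelet markers had 15 UMIs in KO, 13 of them in 1 cell, and 2 UMIs in WT.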
